A study of Mus musculus with 4 samples.

Results

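The genes described here encode the receptor complex for bacterial lipopolysaccharide (LPS) and the first proteins that act inside the cell when it is bound. They are Tlr4, Ly96 and Cd14 of the receptor complex, the adaptors Myd88, Tirap, Ticam1 and Ticam2, and the IRAK family members Irak2, Irak3 and Irak4. They were chosen by name, as every probe whose accession belongs to 1 of these 10 symbols. The rule uses no measured value, but earlier results of these data were known when the genes were chosen. They had 12 probes among the 39429 on the array, 2 each for Irak2 and Irak4 and 1 for each other gene. On all 4 arrays both channels of all 12 probes were well above background, so all 10 genes are among the 23571 genes or accessions tested.

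LPS is drawn from the medium by CD14, handed to MD-2 (the product of Ly96) and held there against TLR4, which then pairs with a second TLR4. At the cell surface, TIRAP docks MyD88 to the receptor, and MyD88 gathers IRAK4 and IRAK2 into a signalling complex that leads to NF-kappaB and inflammatory cytokines. After the receptor is taken up into endosomes, TRAM (Ticam2) docks TRIF (Ticam1), which leads to interferon beta and interferon-stimulated genes. IRAK-M, the product of Irak3, is known as a brake on the MyD88 branch and as a part of endotoxin tolerance in macrophages.

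RefSeq promoter windows (250 bases before to 50 after an annotated start, assembly GRCm38.p6) were matched for 6 of the 10 genes, 8 windows in all. The windows of Myd88 and Irak3 are shown because both genes rose with LPS, and that of Tirap because it passed the threshold in none of the 5 comparisons. Each is written 5′ to 3′ on the gene's strand, with a match to the interferon-type motif GAAANNGAA, searched on both strands, in capitals. The Myd88 window is chr9:119339969-119340268 (minus strand), the Irak3 window is the second of its 2 windows at chr10:120202081-120202380 (minus strand), and the Tirap window is the first of its 2 windows at chr9:35199856-35200155 (minus strand).
Myd88: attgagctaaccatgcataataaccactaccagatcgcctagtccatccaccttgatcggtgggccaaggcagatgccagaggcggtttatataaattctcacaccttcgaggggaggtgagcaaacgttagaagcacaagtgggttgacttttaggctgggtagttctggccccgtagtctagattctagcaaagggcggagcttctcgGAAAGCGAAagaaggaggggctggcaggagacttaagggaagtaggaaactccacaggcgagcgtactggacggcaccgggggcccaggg
Irak3: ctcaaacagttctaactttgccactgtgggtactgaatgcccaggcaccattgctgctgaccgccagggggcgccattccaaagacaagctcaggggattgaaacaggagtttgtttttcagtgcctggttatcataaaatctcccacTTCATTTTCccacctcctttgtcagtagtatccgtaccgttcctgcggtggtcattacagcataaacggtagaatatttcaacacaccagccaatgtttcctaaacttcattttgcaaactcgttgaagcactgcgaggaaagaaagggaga
Tirap: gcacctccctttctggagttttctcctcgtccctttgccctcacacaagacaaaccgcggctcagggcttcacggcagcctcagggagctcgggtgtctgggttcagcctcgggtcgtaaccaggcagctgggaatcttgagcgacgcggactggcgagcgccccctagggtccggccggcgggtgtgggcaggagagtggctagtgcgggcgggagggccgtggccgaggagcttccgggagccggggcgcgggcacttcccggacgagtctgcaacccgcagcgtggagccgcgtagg

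The match in the Myd88 window begins at position -40 from the annotated start and reads GAAAGCGAA on the gene's strand. The match in the Irak3 window begins at position -102 and reads TTCATTTTC, since it lies on the opposite strand. The other Irak3 window and the windows of Tirap, Ticam1, Irak2 and Irak4 do not hold these letters. Of the Irak3 windows, that with the match is shown, and Ticam1, which also passed the threshold in no comparison, is not shown. The windows shown are therefore no comparison of genes that rose with genes that did not. Of all 32851 windows in the table, from 27025 genes, 8.56% hold the motif, so a match is a description of the letters and not of a binding site. The PU.1-type motif GAGGAAG was found at position -30 of the Ticam1 window and is held by 13.6% of all windows. The motifs TGANTCA (7.81% of all windows), TGACGTCA (1.79%) and the kappaB consensus (4.51%) were found in none of the 8 windows. No motif searched overlapped another in these windows.

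The cells were primary macrophages from bone marrow of male mice, 6 weeks old, labelled B6.129S4-Cdk5r1tm1Lht/J for both genotypes and cultured for 7 days in GM-CSF, 25 ng/ml, a cytokine that drives myeloid growth. The 4 groups were CDK5R1 knockout cells and wildtype cells given E. coli LPS at 100 ng/ml for 6 h, and CDK5R1 knockout cells and wildtype cells in the basal state. Cdk5r1 encodes p35, a protein that switches on the kinase CDK5, and the comparisons ask how its loss changes expression at rest and after LPS. Each of 4 two-colour Agilent arrays set knockout RNA in Cy5 against wildtype RNA in Cy3, with 2 LPS arrays and 2 basal arrays, called biological replicates in the labels without naming the animals. The loss of Cdk5r1 is not limited to macrophages by anything in the labels, and the basal arrays have no stated vehicle. No array had its dyes swapped, so in a knockout to wildtype ratio a dye effect of a probe and the genotype cannot be told apart. Such an effect cancels in LPS against basal within a channel and in the difference of 2 ratios.

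On each of the 4 arrays the knockout channel held less Cdk5r1 than the wildtype channel, with log2 ratios of -2.55 and -2.29 under LPS and of -0.37 and -0.59 in the basal state. Another probe of Cdk5r1 gave mean log2 ratios of -2.01 under LPS and -0.49 in the basal state. The labels and files do not say whether these probes lie inside the deleted part. Median foreground intensity ran from 116 to 145.5 in Cy5 and from 76.0 to 97.5 in Cy3, over backgrounds of 46.0 to 48.0 and 25.0 to 27.0 and precision is limited by the number of arrays. Of 7 macrophage markers 6 were measured and well above background on arrays of both genotypes, with Cd68 not matched. Their summed level was 71720 to 90540 in knockout and 81870 to 82610 in wildtype cells under LPS. In the basal state it was 188700 to 230000 in knockout and 188100 to 189800 in wildtype cells. In each state 1 of the 6 was called lower in knockout cells and none higher. Of 10 granulocyte markers 9 were measured, with Ly6g not measured. Of these, 6 were lower in knockout cells under LPS and 5 in the basal state (limma, adjusted p under 0.05). Over all genes 5.23% were called lower under LPS and 1.49% in the basal state. Retnlg was not well above background in knockout cells on any array, while the other 8 were above it in both genotypes on all 4 arrays. Their summed level was 95440 to 100300 in knockout and 275600 to 299300 in wildtype cells under LPS, and 55690 to 85070 in knockout and 115300 to 176600 in wildtype cells in the basal state. For eosinophil, mast cell and basophil markers, 5 of 6 measured and Ms4a2 above background on no array, the summed level was 4928 to 6331 in knockout and 11980 to 18220 in wildtype cells under LPS, and 1860 to 3294 in knockout and 4936 to 6450 in wildtype cells in the basal state. Of these 5, 2 were called lower and 1 higher in knockout cells under LPS, and 2 lower and 2 higher in the basal state. Over all genes 7.17% were called higher under LPS and 3.37% in the basal state. The 6 dendritic cell markers summed to 218700 to 237300 in knockout and 204700 to 223200 in wildtype cells under LPS. In the basal state they summed to 100800 to 115200 in knockout and 110000 to 125800 in wildtype cells. Under LPS 1 of the 6 was called higher and 1 lower in knockout cells, and none was called in the basal state. The part of RNA from such cells in the values below was not tested, and in such bulk cultures fewer cells of a type and less RNA per cell cannot be told apart.

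LPS split the receptor complex. In both genotypes the mRNA of Tlr4, the signalling receptor, fell several fold, while Ly96 and Cd14, which bring the ligand to it, rose. Of the 10 genes, 5 rose and 2 fell in knockout cells (limma, adjusted p under 0.05), where 41.8% of all genes were called. In wildtype cells 4 rose and 1 fell, and 41.8% of all genes were called there too. The share of genes called higher was 19.1% in knockout and 18.3% in wildtype cells, and the share called lower was 22.7% and 23.4%. The median log2 change of the 10 genes was 0.40 in knockout and 0.39 in wildtype cells, beside medians of -0.013 and -0.0053 over all genes.

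Tlr4 stood at 292 and 305 normalised intensity units on the LPS arrays and at 1416 and 1277 on the basal arrays in knockout cells. In wildtype cells it stood at 376 and 532 under LPS and at 1459 and 1273 in the basal state. Within each genotype the LPS and basal values did not overlap. The log2 change was -2.17 ± 0.11 (SE) in knockout cells, with limma's adjusted p = 0.00090, and -1.61 ± 0.20 in wildtype cells, with limma's adjusted p = 0.0043. That put Tlr4 at rank 459 from the bottom of 23571 genes in knockout cells and at rank 872 in wildtype cells.

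Ly96, which encodes the LPS-binding protein MD-2, moved the other way. It read 3893 and 4105 under LPS against 1388 and 1126 in the basal state in knockout cells, and 3633 and 3914 under LPS against 1573 and 1174 in the basal state in wildtype cells. The log2 change was 1.68 ± 0.14 (SE) in knockout and 1.47 ± 0.17 in wildtype cells (limma, adjusted p = 0.0022 and 0.0035). Cd14, the membrane-anchored LPS carrier, rose most of the 10 genes. It read 30628 and 20549 under LPS against 6596 and 5264 in the basal state in knockout cells, and 41147 and 31214 under LPS against 7995 and 7655 in the basal state in wildtype cells. Its log2 change was 2.09 ± 0.24 in knockout and 2.20 ± 0.16 in wildtype cells (limma, adjusted p = 0.0045 and 0.0012), a 4.26-fold and a 4.58-fold rise.

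**Figure D1:**
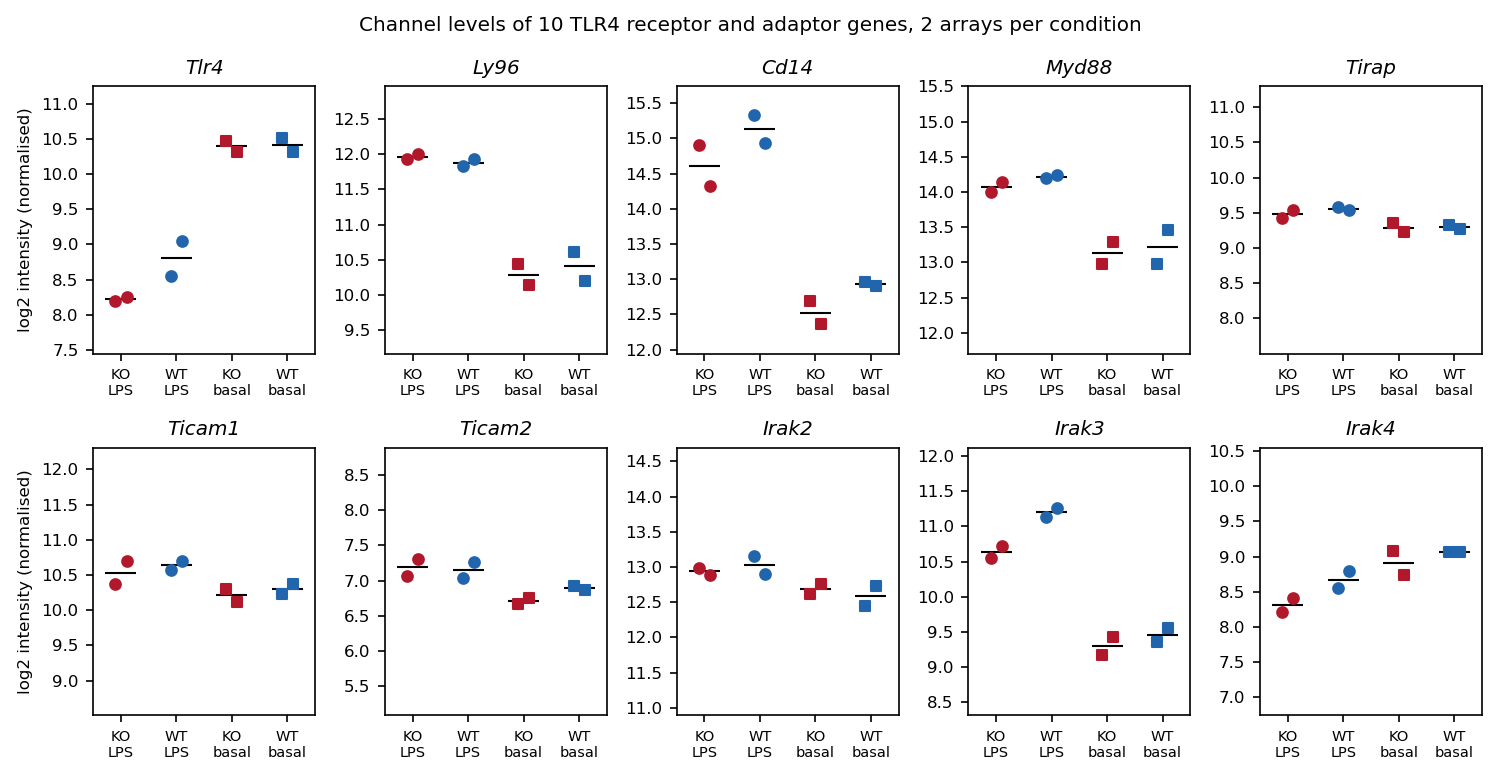
Normalised log2 intensity of each gene in knockout (KO, red) and wildtype (WT, blue) cells, with circles for LPS arrays, squares for basal arrays and a line at the mean of 2. Every panel spans the same number of log2 units: Tlr4 lies lower under LPS, Ly96, Cd14, Myd88 and Irak3 lie higher, and the Tirap panel is nearly flat.

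Among the adaptors, Myd88, the hub of the NF-kappaB branch, was the one that rose in both genotypes. It read 16441 and 18050 under LPS against 8082 and 9975 in the basal state in knockout cells, and 18816 and 19337 under LPS against 8046 and 11266 in the basal state in wildtype cells. The LPS and basal values did not overlap in either genotype, and the log2 change was 0.94 ± 0.15 (SE) in knockout and 1.00 ± 0.18 in wildtype cells (limma, adjusted p = 0.0097 and 0.013). Without basal replicate 1 the change in knockout cells was 0.79 and no longer passed (limma, adjusted p = 0.052). Ticam2, the bridge that brings TRIF to the receptor, was dim, with 134 and 159 under LPS against 102 and 108 in the basal state in knockout cells, and 132 and 153 under LPS against 121 and 117 in the basal state in wildtype cells. It passed narrowly in knockout cells, at 0.48 ± 0.13 with limma's adjusted p = 0.041, and in wildtype cells its change was 0.26 ± 0.11 with limma's adjusted p = 0.14. The knockout call was lost when basal replicate 1 (0.44), basal replicate 2 (0.52) or LPS replicate 2 (0.36) was left out, with limma's adjusted p between 0.090 and 0.18. It was also lost with the replicate number as a block (limma, adjusted p = 0.060).

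Tirap, which docks MyD88 to the receptor, read 686 and 747 under LPS against 654 and 599 in the basal state in knockout cells. In wildtype cells it read 763 and 745 under LPS against 642 and 619 in the basal state. Its log2 change was 0.19 in knockout cells (95% interval -0.10 to 0.49) and 0.26 in wildtype cells (0.019 to 0.49), and neither passed (limma, adjusted p = 0.23 and 0.081). Ticam1, the adaptor of the interferon branch, read 1322 and 1654 under LPS against 1266 and 1112 in the basal state in knockout cells, and 1523 and 1667 under LPS against 1202 and 1327 in the basal state in wildtype cells. Its change was 0.32 (95% interval -0.098 to 0.73) in knockout and 0.34 (0.051 to 0.62) in wildtype cells, and neither passed (limma, adjusted p = 0.17 and 0.065). When each channel was scaled to its 75th percentile, the median of all genes moved to 0.35 in knockout and 0.37 in wildtype cells. Relative to that median Tirap was at -0.18 and -0.12 and Ticam1 at -0.00074 and 0.014, while Myd88 was at 1.05 and 1.11 and Ticam2 at 0.44 and 0.21.

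In the IRAK family, Irak3, the inhibitory member, rose in both genotypes. It read 1502 and 1694 under LPS against 578 and 690 in the basal state in knockout cells, and 2255 and 2461 under LPS against 659 and 754 in the basal state in wildtype cells. The values of the conditions were far apart in both genotypes, with a log2 change of 1.34 ± 0.14 (SE) in knockout and 1.74 ± 0.12 in wildtype cells (limma, adjusted p = 0.0037 and 0.0011). Irak4, the kinase that starts the complex, read 297 and 342 under LPS against 542 and 426 in the basal state in knockout cells, and 375 and 444 under LPS against 536 and 537 in the basal state in wildtype cells. It fell by 0.59 ± 0.16 in knockout cells (limma, adjusted p = 0.044) and its change in wildtype cells was -0.40 ± 0.12, which did not pass (limma, adjusted p = 0.054). The knockout call was lost whichever of the 4 arrays was left out (changes of -0.77 to -0.42), and with the replicate block (limma, adjusted p = 0.084). The dimmer Irak4 probe passed in the other genotype, with -0.53 in knockout cells (limma over 28637 probes, adjusted p = 0.062) and -0.37 in wildtype cells (adjusted p = 0.031).

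Irak2, the IRAK family member that sustains the response, gave different sizes on its 2 probes. The brighter probe read 8137 and 7581 under LPS against 6289 and 6934 in the basal state in knockout cells, and 9080 and 7647 under LPS against 5571 and 6783 in the basal state in wildtype cells. Its log2 change was 0.25 (95% interval -0.045 to 0.55) in knockout and 0.44 (0.042 to 0.84) in wildtype cells, and neither passed (limma, adjusted p = 0.14 and 0.077). The dimmer probe read 442 and 454 under LPS against 256 and 274 in the basal state in knockout cells, and 502 and 523 under LPS against 245 and 266 in the basal state in wildtype cells. It rose by 0.76 ± 0.10 (SE) in knockout and 1.01 ± 0.099 in wildtype cells (limma over 28637 probes, adjusted p = 0.0064 and 0.0024). The direction was thus shared by both probes and the size was not settled by them.

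**Figure D2:**
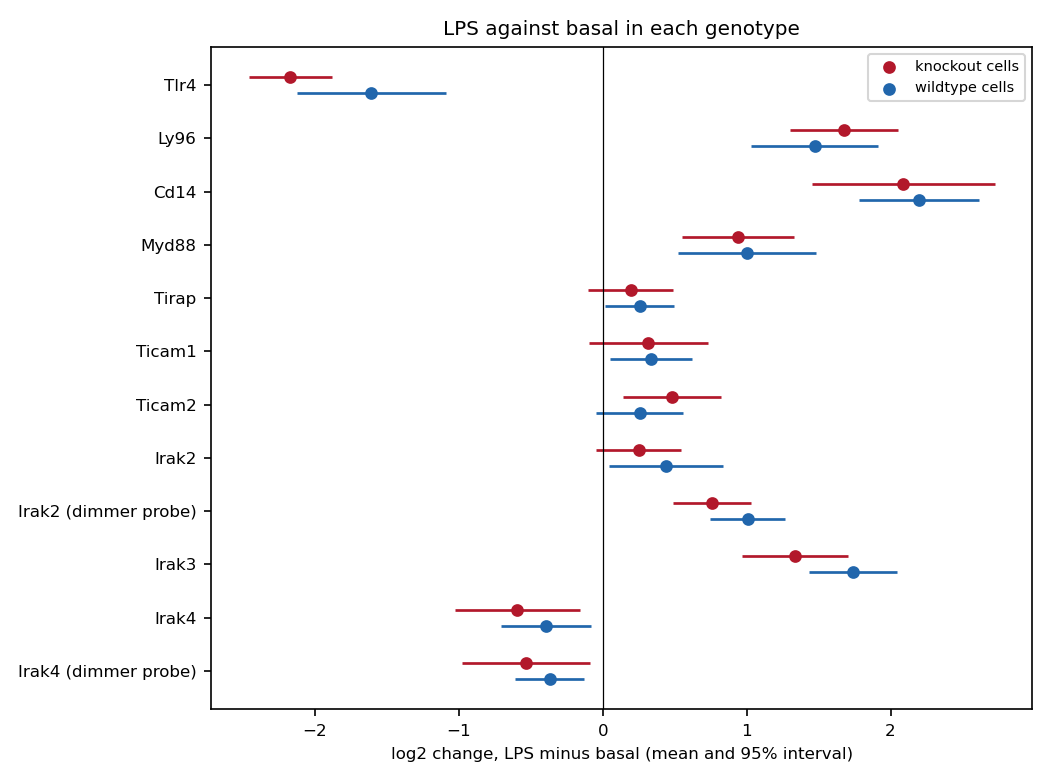
Log2 change of each gene, LPS minus basal, in knockout cells (red, upper) and wildtype cells (blue, lower), as points with 95% intervals of the limma fit from 2 arrays per condition. Tlr4 is far to the left, Cd14, Ly96, Irak3 and Myd88 are to the right, and the 2 Irak2 probes differ in size.

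Under LPS, the knockout channel read lower than the wildtype channel for Tlr4, Cd14 and Irak3, at 0.667-fold, 0.700-fold and 0.677-fold. These were 3 of the 10 genes, all lower, where 12.4% of all genes were called, 7.17% higher and 5.23% lower. With no dyes swapped, a dye effect of a probe and the genotype cannot be told apart in these ratios. The median log2 ratio of the 10 genes was -0.13, beside -0.00076 over all genes. The other receptor subunit, Ly96, and the 4 adaptors did not pass. In the basal state none of the 10 genes passed (limma, adjusted p under 0.05), where 4.87% of all genes were called, 3.37% higher and 1.49% lower. At an unadjusted p under 0.05, 2 of the 10 passed there (Cd14 and Ticam2), beside 19.8% of all genes.

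The log2 ratio of Tlr4 was -0.36 and -0.80 on the LPS arrays and -0.043 and 0.0049 on the basal arrays. The LPS arrays were therefore both below both basal arrays, and they differed between themselves. The mean under LPS was -0.58 ± 0.11 (SE), with limma's adjusted p = 0.020. The basal mean was -0.019 ± 0.11 (limma, adjusted p = 0.94; 95% interval -0.28 to 0.24). Under LPS the call was lost without LPS replicate 2, at -0.36 (limma, adjusted p = 0.14), and with Agilent's processed signals, at -0.75 (limma, adjusted p = 0.069).

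For Cd14 the ratio was below 0 on every array, at -0.43 and -0.60 under LPS and at -0.28 and -0.54 in the basal state, so the conditions overlapped. The mean was -0.51 ± 0.090 (SE) under LPS (limma, adjusted p = 0.016) and -0.41 ± 0.090 in the basal state, where it did not pass (limma, adjusted p = 0.060). Under LPS, Cd14 was the gene of the 10 whose ratio moved most with median centring. With median centring in place of loess its ratio under LPS was -0.066 (limma, adjusted p = 0.74), and with the processed signals it was -0.50 (limma, adjusted p = 0.068). It was also lost without LPS replicate 1, at -0.60, or LPS replicate 2, at -0.43 (limma, adjusted p = 0.10 and 0.16). Ly96 gave 0.10 and 0.069 under LPS and -0.18 and -0.060 in the basal state, and passed in neither (limma, adjusted p = 0.48 and 0.40).

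**Figure D3:**
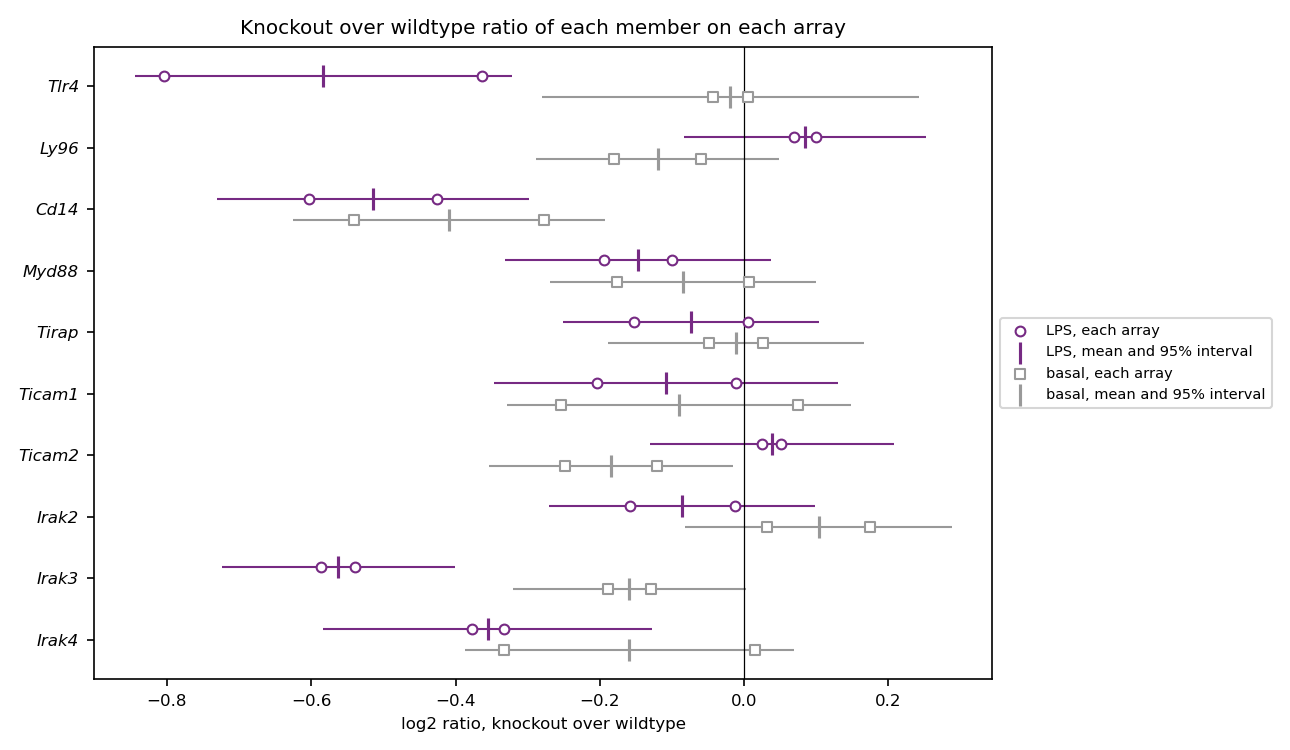
Log2 ratio of knockout over wildtype for each gene on each array (circles LPS, squares basal), with the mean of 2 arrays (bar) and the 95% interval of the limma fit (line). Under LPS both circles of Tlr4, Cd14, Irak3 and Irak4 lie left of 0, and those of Myd88, Ticam1 and Irak2 do so nearer to 0. In the basal state Cd14 lies farthest to the left, at a mean of -0.41.

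Irak3 had the narrowest spread of the genes called. Its ratio was -0.59 and -0.54 on the LPS arrays and -0.19 and -0.13 on the basal arrays, and the conditions did not overlap. The mean was -0.56 ± 0.067 (SE) under LPS (limma, adjusted p = 0.0041) and -0.16 ± 0.067 in the basal state (limma, adjusted p = 0.26). It was the one member still called with the processed signals and with the authors' deposited table as input to the fit. With 1 LPS array left out it lost the call, at -0.54 without LPS replicate 1 and -0.59 without LPS replicate 2 (limma, adjusted p = 0.070 and 0.067).

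Irak4 was close to the threshold under LPS, with ratios of -0.33 and -0.38, a mean of -0.36 ± 0.095 (SE) and limma's adjusted p = 0.059. In the basal state its arrays gave 0.015 and -0.33. Its dimmer probe gave -0.40 and -0.12 under LPS and 0.033 and -0.22 in the basal state. Irak2 gave -0.16 and -0.013 under LPS and 0.17 and 0.032 in the basal state, and its dimmer probe gave -0.18 and -0.21 under LPS and 0.067 and 0.042 in the basal state. Both Irak2 probes were thus above 0 on both basal arrays and below 0 on both LPS arrays, and none of these means passed.

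None of the adaptors passed between the genotypes in either state (limma, adjusted p under 0.05), and Ticam2 had an unadjusted p under 0.05 in the basal state. Myd88 was at -0.15 under LPS (95% interval -0.33 to 0.038) and at -0.085 in the basal state (-0.27 to 0.10). Its probe was spotted 10 times on each array, and the spots spanned -0.22 to -0.16 and -0.13 to -0.076 on the LPS arrays and -0.019 to 0.035 and -0.20 to -0.12 on the basal arrays. The 2 basal arrays thus differed by more than the spots within either of them. Tirap was at -0.074 under LPS (95% interval -0.25 to 0.10) and at -0.011 in the basal state (-0.19 to 0.17). Ticam1 was at -0.11 under LPS (95% interval -0.35 to 0.13) and at -0.090 in the basal state (-0.33 to 0.15). Ticam2 was at 0.039 under LPS (95% interval -0.13 to 0.21) and at -0.18 in the basal state (-0.35 to -0.016). The basal interval of Ticam2 lies below 0, and the other 7 hold 0.

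**Figure D4:**
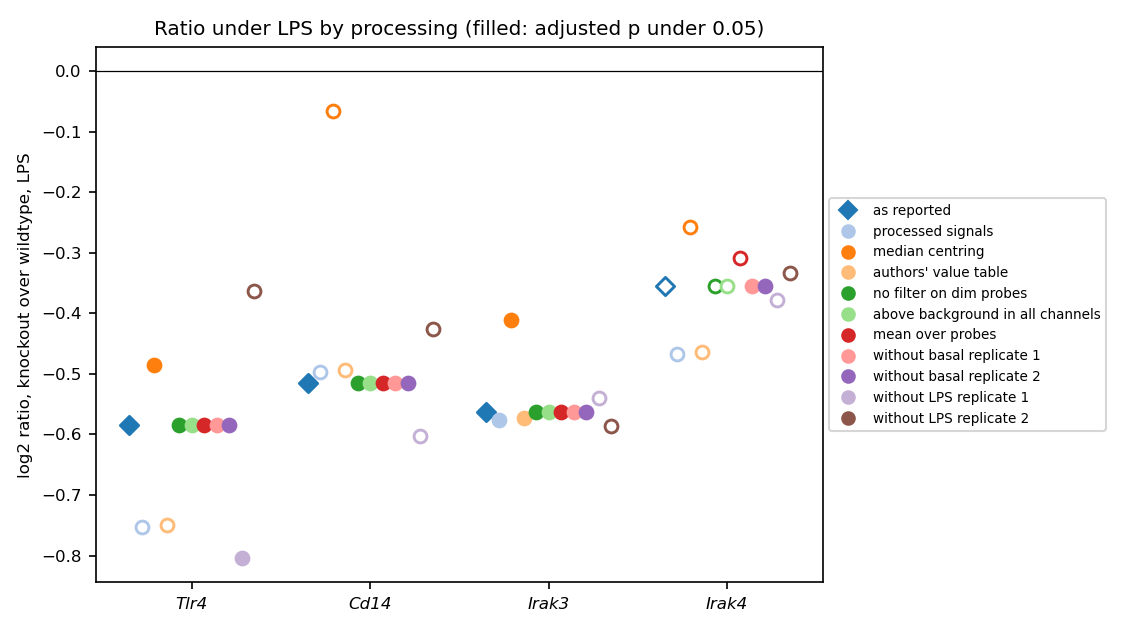
Log2 ratio of knockout over wildtype under LPS for Tlr4, Cd14, Irak3 and Irak4 as reported (diamond) and under each alternative (circles), filled where limma's adjusted p was under 0.05. All values lie below 0, and Cd14 is nearest 0 with median centring, at -0.066.

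Whether the knockout ratio itself changed with LPS was tested as the difference of the ratios, in which a constant dye effect cancels. None of the 10 genes passed (limma, adjusted p under 0.05), where 0.382% of all genes were called, 0.267% higher and 0.115% lower. At the same test 2 had an unadjusted p under 0.05, beside 10.4% of all genes. These were Irak3, at -0.40 ± 0.095 (SE) with an unadjusted p of 0.0045 and limma's adjusted p = 0.20, and Tlr4, at -0.56 ± 0.15 with an unadjusted p of 0.0090 and limma's adjusted p = 0.26. The largest positive differences were those of Ticam2, at 0.22 ± 0.10, and Ly96, at 0.20 ± 0.099 (limma, adjusted p = 0.51 and 0.55). Cd14, whose ratio was low in both conditions, had a difference of -0.11 ± 0.13 (limma, adjusted p = 0.84). The lower Tlr4 and Irak3 ratios under LPS are therefore not shown to differ from those in the basal state. The same holds for the LPS responses of Ticam2 and Irak4, which passed in knockout and not in wildtype cells, since this difference is also that of the responses (Irak4 at -0.20, limma's adjusted p = 0.69).

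The other genes of the pathway were read from a list of 36, of which 35 were measured and Sarm1 was not. With LPS, 14 rose and 10 fell in knockout cells, where 19.1% of all genes were called higher and 22.7% lower. In wildtype cells 14 rose and 11 fell, where 18.3% of all genes were called higher and 23.4% lower. The median change of the 35 was 0.16 in knockout and 0.18 in wildtype cells. The largest rises were those of Tnfaip3 (the deubiquitinating enzyme A20), at 4.70 in knockout and 4.51 in wildtype cells, Ikbke (the kinase IKK epsilon), at 3.43 and 3.37, and Peli1 (a ubiquitin ligase that acts with the IRAKs), at 3.05 and 3.27. The largest falls were those of Inpp5d (the lipid phosphatase SHIP1), at -4.39 in knockout and -4.01 in wildtype cells, Il1rl1 (the interleukin-33 receptor), at -3.94 and -3.67, and Cnpy3 (a chaperone of Toll-like receptors), at -2.02 and -1.83. The other 2 Il1rl1 probes gave smaller falls, of -1.16 and -1.23 in knockout and -1.82 and -1.23 in wildtype cells.

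By role, the 5 genes of ligand transfer and receptor folding had 1 that rose and 3 that fell in either genotype. The shares over all genes were 19.1% higher and 22.7% lower in knockout cells, and 18.3% and 23.4% in wildtype cells. Cd180, a receptor related to TLR4, rose by 1.13 in knockout and 1.20 in wildtype cells, while Ly86, which encodes its partner MD-1, changed by -1.40 and -1.51. Hsp90b1, the chaperone gp96, fell with Cnpy3, by 0.79 in knockout and 0.40 in wildtype cells. The 20 signal transducers had 10 that rose in either genotype, and 2 that fell in knockout and 3 in wildtype cells. Traf6, the ubiquitin ligase next to the IRAKs, was at 1.44 and 1.53 and rose in both, and Irak1 was at -1.20 and -1.17 and fell in both. The 10 measured negative regulators had 3 that rose and 5 that fell in either genotype. For 5 of the 35 pathway genes another probe had the opposite sign to the brightest one, and at least 1 of the probes passed. These were the negative regulators Tollip, Cyld and Nlrx1 and the transducers Ube2v1 and Ube2n, so their direction is not settled. Other probes rose with LPS for Tollip, at 0.90 in knockout and 0.89 in wildtype cells (limma over 28637 probes, adjusted p = 0.0076 and 0.0044), and for Ube2v1, at 0.81 and 0.69 (adjusted p = 0.0048 and 0.0075), where the brightest probes did not pass. Where the brightest probe of Cyld fell in both genotypes, the other was at 0.34 in knockout cells (adjusted p = 0.085) and rose by 0.61 in wildtype cells (adjusted p = 0.0086). Where that of Nlrx1 fell in both, the other rose by 0.45 in knockout cells (adjusted p = 0.033) and was at 0.27 in wildtype cells (adjusted p = 0.21). The brightest Ube2n probe rose in both, and the other was at -0.35 in knockout cells (adjusted p = 0.047) and -0.27 in wildtype cells (adjusted p = 0.076).

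Between the genotypes none of the 35 passed in the basal state (limma, adjusted p under 0.05), where 4.87% of all genes were called, and 2 had an unadjusted p under 0.05, as had 19.8% of all genes. Under LPS 3 of the 35 were lower and none higher in knockout cells by their brightest probe, where 5.23% of all genes were called lower and 7.17% higher. These were Btk, the Bruton kinase, at -0.60, Hsp90b1 at -0.36 and Inpp5d at -0.33 (limma, adjusted p = 0.030, 0.029 and 0.036). The other Btk probe gave -0.17 and did not pass (limma, adjusted p = 0.22). The dimmer probe of Cyld, a deubiquitinating enzyme that restrains NF-kappaB, was higher in knockout cells, at 0.30 under LPS and 0.58 in the basal state (limma over 28637 probes, adjusted p = 0.049 and 0.0079), while its brightest probe, at 0.10 and 0.21, did not pass (limma, adjusted p = 0.40 and 0.17). In the difference of the ratios none of the 35 passed (limma, adjusted p under 0.05), where 0.382% of all genes were called, and 2 had an unadjusted p under 0.05, as had 10.4% of all genes.

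**Figure D5:**
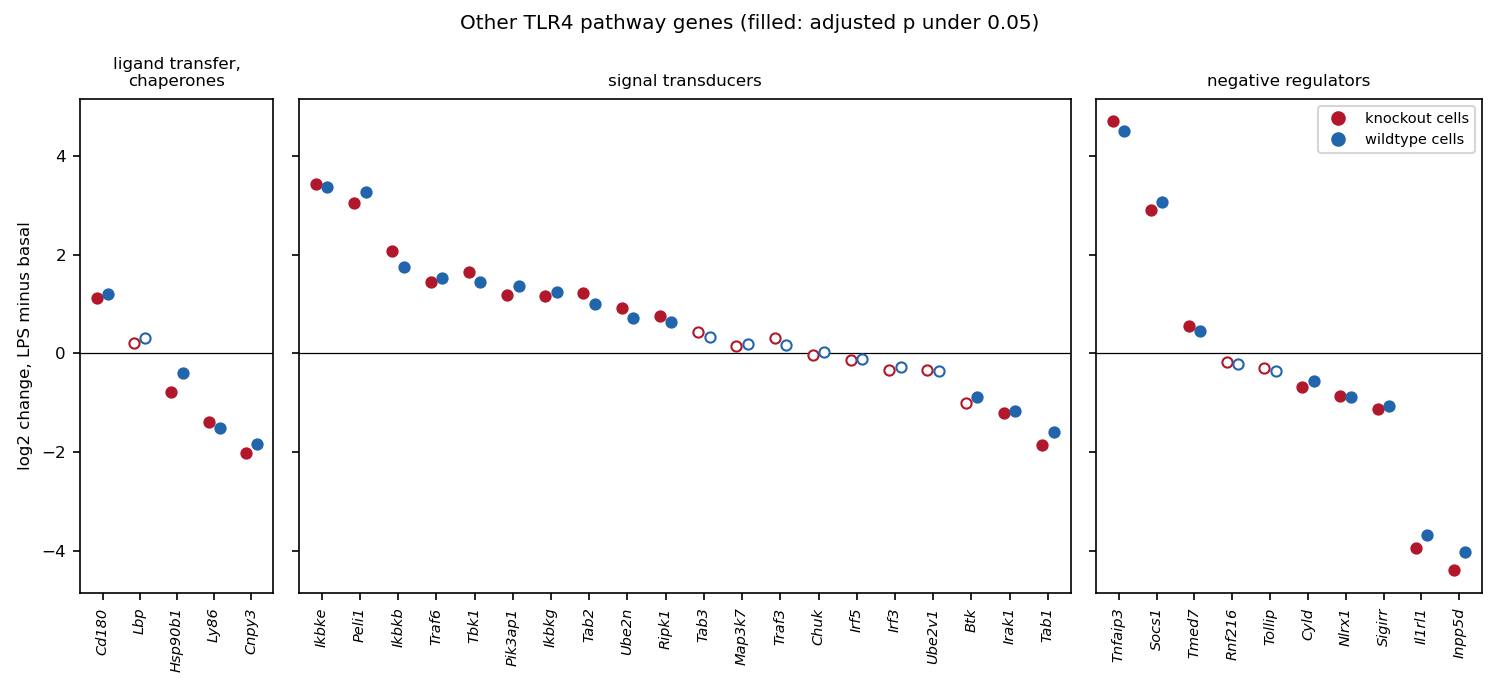
Log2 change, LPS minus basal, of the 35 measured pathway genes by role, in knockout cells (red, left of each pair) and wildtype cells (blue), filled where limma's adjusted p was under 0.05. Each pair has the same sign in both genotypes where both passed, from Tnfaip3 at 4.70 and 4.51 to Inpp5d at -4.39 and -4.01.

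The outputs of the receptor were read from 2 lists of 10 genes. All 10 genes of the MyD88 branch rose with LPS in both genotypes, with a median of 5.31 in knockout and 5.55 in wildtype cells. All 10 of the TRIF branch also rose, with a median of 7.82 in knockout and 7.36 in wildtype cells. With LPS 19.1% of all genes were called higher in knockout and 18.3% in wildtype cells. Between the genotypes under LPS, 6 of the MyD88 list were lower and 1 was higher in knockout cells, with a median of -0.39, and 1 of the TRIF list was higher, with a median of -0.12. Over all genes 5.23% were called lower and 7.17% higher there. In the basal state, where 1.49% of all genes were called lower, 8 of the TRIF list were lower in knockout cells, with a median of -0.66. The basal cells were given no LPS, and whether these basal levels depend on the receptor was not tested. None of the MyD88 list passed there (limma, adjusted p under 0.05). At an unadjusted p under 0.05, 2 of the MyD88 list passed, beside 19.8% of all genes. In the difference of the ratios, where 0.382% of all genes were called, 1 gene of the TRIF list passed, Oasl1, and none of the MyD88 list (limma, adjusted p under 0.05). At an unadjusted p under 0.05 there were 8 of the TRIF list, with a list median of 0.45, beside 10.4% of all genes. There were 6 of the MyD88 list at that cutoff, with a list median of -0.28. Of the 9 granulocyte markers measured, 6 were lower in knockout cells under LPS and 5 in the basal state (limma, adjusted p under 0.05). None of the granulocyte markers passed in the difference. There 4 of them had an unadjusted p under 0.05, beside 10.4% of all genes. Their part in these counts was not tested.

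For each of the 10 genes, the other genes with a symbol were ordered by how closely their levels followed it over the 8 channels, with each gene centred on its own mean. Likeness was the root mean square difference in log2 units, over 15986 candidates, and is a description without a test. The 2 channels of an array share their hybridisation, and most of the variation is between LPS and basal arrays. Nearest to Tlr4 were Sh2d3c (0.113), Mrpl41 (0.142) and Ptgir (0.145). Nearest to Cd14 were Fam102b (0.0983), Tnfaip2 (0.175) and Samd9l (0.177). Nearest to Irak3 were Il1f9 (0.120), Mtpn (0.126) and N4bp1 (0.132). Ly96 was followed most closely by Ogfr (0.0780) and Myd88 by Csl (0.0807). No member was among the 3 nearest genes of another.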

How the data were processed

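Total RNA of each genotype was labelled and hybridised to 4 two-colour Agilent arrays, 10 µg per labelling. Spot intensities of both channels come from the deposited scanner files. Per the file headers these were written by Agilent Feature Extraction 11.5.1.1, while the submitters' processing notes name version 9.3.2.1. The authors' value table holds deposited log2 ratios of knockout over wildtype, which equal those of the processed signals up to a constant per array (within a tolerance of 0.001) and whose column medians are 0.016 to 0.034. The origin of that constant is not given. Median intensities were used, since the files give these.

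Background was corrected by normexp (offset 50), ratios by loess within arrays where controls and outlier spots had weight 0, and levels by Aquantile, in limma 3.58.1 under R 4.3.3. Probes well above background in at least 1 channel on 2 or more arrays were kept, 28637 in all, and the brightest kept probe stood for a gene. Symbols came from accessions matched to RefSeq (GRCm38.p6), for 27508 of the 39429 probes. The file headers name mm9, so the only coordinates given are those of the RefSeq promoter windows, on GRCm38.p6. The 5 comparisons were fitted with lmFit and eBayes and adjusted by Benjamini-Hochberg over 23571 genes, with a threshold of 0.05 and two-sided p-values. A change in a channel was fitted per channel. The p-values measure the spread between these arrays. All 4 arrays were on 1 slide and in 1 scan. The fits were tested on simulated data. The planted changes were larger than the genotype ratios of the 10 genes, and every simulated gene had the same spread. That test therefore says nothing on the calls made here. All 10 genes are named. Of the pathway list the 3 largest rises and falls among the calls are named, and other pathway genes given by role were chosen after their values were seen. The members and lists were chosen with earlier results of these data known. Alternatives tried were processed signals, median centring, the authors' table, 75th percentile and quantile scaling, 2 other filters, mean over probes, a replicate block, a joint fit of both channels and each array left out.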

Additional observations from a re-analysis of the deposited data

Results flagged for a closer look

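Among the genes of the lists read here, the effect of the knockout differed between LPS and basal arrays for 2, by limma's test of the difference. Neither is among the 10 described. Over all genes that test called 90 of 23571 (0.382%), 63 higher and 27 lower. For Cdk5r1, the targeted gene, the knockout to wildtype log2 ratio was lower under LPS than in the basal state by a difference of -1.94 ± 0.13 (SE, adjusted p = 0.0044). Its level was 449 and 799 in knockout and 2630 and 3895 in wildtype cells under LPS, and 592 and 584 in knockout and 764 and 878 in wildtype cells in the basal state. For Oasl1, an interferon-stimulated gene of the TRIF list, the difference was 1.05 ± 0.093 (SE, adjusted p = 0.012), with a ratio of 0.34 under LPS and -0.71 in the basal state.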

How the results depend on the processing

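Of 580 recomputed values of the 10 genes, 513 kept direction and side of the threshold, 22 lost a call, 14 gained one and 31 changed sign, none of the 31 being called in either setting. The causes were not tested. The number of the 10 genes called for knockout against wildtype was 1 in the basal state with median centring (Irak2), against 0 as reported. Over all genes 18.9% were called there, against 4.87% as reported. Under LPS the number was 1 with the processed signals and 1 with the authors' deposited table, against 3. Over all genes these called 7.31% and 7.39%, against 12.4%. For LPS against basal in wildtype cells the number was 9 with 75th percentile scaling, where 66.9% of all genes were called, against 5 and 41.8%. With an array left out it ran from 0 to 4 for knockout against wildtype under LPS, from 0 to 0 in the basal state and in the difference, and from 4 to 6 in knockout and 5 to 6 in wildtype cells for LPS against basal. Leaving out any array leaves 1 in its condition, assumed to vary like the others.

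Signs turned in the basal state with median centring for Tlr4 (0.15), Ly96 (0.048), Myd88 (0.18), Tirap (0.13) and Ticam1 (0.078), and with the authors' table for Tirap (0.00090). Under LPS they turned with median centring for Myd88 (0.22), Tirap (0.051), Ticam1 (0.035) and Irak2 (0.17), with the processed signals for Tirap (0.032) and Ticam2 (-0.018), and with the authors' table for Tirap (0.035) and Ticam2 (-0.015). In the difference they turned with median centring for Cd14 (0.10) and Myd88 (0.039), with the processed signals for Tirap (0.033) and Ticam1 (0.061), and with the authors' table for Tirap (0.034) and Ticam1 (0.062).

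With an array left out, ratios ran across 0 in the basal state from -0.043 to 0.0049 for Tlr4, -0.18 to 0.0064 for Myd88, -0.049 to 0.026 for Tirap, -0.25 to 0.075 for Ticam1 and -0.33 to 0.015 for Irak4, and under LPS from -0.15 to 0.0054 for Tirap. Differences ran from -0.24 to 0.026 for Cd14, -0.15 to 0.029 for Myd88, -0.14 to 0.017 for Tirap and -0.18 to 0.15 for Ticam1.

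Over all genes, 56 differences were called with the replicate block against 90 without it, and 8037 and 8148 genes with it for LPS in knockout and wildtype cells. With that block 5 of the 10 genes were called in knockout and 5 in wildtype cells, and 0 in the difference. Deviations of arrays with the same number correlated at -0.16 (log2 ratio), -0.083 (knockout channel) and -0.19 (wildtype channel), and 2 pairs do not show that numbers pair the arrays. With crossed numbers, chosen after seeing the data, 364 differences, 6 genes of the 10 in knockout and 6 in wildtype cells were called. No slide block was run, since there was 1 slide.

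Counts over all genes that moved by over 1.5 times were, for the basal ratio (1147 as reported), 4459 with median centring, 704 above background in all channels and 706 and 743 without basal replicate 1 and 2. For the LPS ratio (2921) they were 5491 with median centring, 1723 with the processed signals, 1742 with the authors' table, and 498 and 401 without LPS replicate 1 and 2. For the difference (90) they were 228 with median centring, 6 with the processed signals, 8 with the authors' table, 19 above background in all channels, and 4 to 197 with an array left out. For LPS against basal (9856 in knockout, 9849 in wildtype cells) they were 14878 and 15763 with 75th percentile scaling, 4805 and 5705 without basal replicate 1, and 4082 and 5285 without basal replicate 2. The share of calls that were higher was 69.3% as reported and 85.5% with median centring in the basal state, 57.8% and 84.4% under LPS, and with 75th percentile scaling 71.7% against 45.6% in knockout and 73.0% against 43.9% in wildtype cells. In the difference it was 70.0%, and 83.3% with the processed signals and 87.5% with the authors' table.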
